A study of Mus musculus with 18 samples.

Results

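Tumour-free control muscles of C57BL/6 mice were compared with each other: 6 of the 18 libraries of the series, chosen by their labels and taken as 3 groups of 2. The muscle was the tibialis anterior (TA), a fast muscle of the shin, and poly(A) RNA was sequenced as read pairs. The series compares TA muscles in mouse models of cancer cachexia, the muscle loss that accompanies a tumour, and each tumour group was set against controls of its own model. The LLC controls received PBS in place of LLC cells, a lung carcinoma line that the tumour-bearing mice received in muscle. The Matrigel controls received only Matrigel, the basement membrane gel, as controls of the orthotopic KPC and KPCML1 tumours. The KPP controls were mice of a genetic tumour model, which is started with tamoxifen, and had no tumour. The labels give C57BL/6 as the strain of all 6 and call the libraries biological replicates. The substrain, the alleles of the KPP mice, whether the KPP controls received tamoxifen, which muscle received the PBS, and the ages and collection hours are not stated in the labels or protocols. Group therefore cannot be told apart from substrain, injection, genotype, age or time of day.

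A TA sample holds more than muscle fibres. Fat cells and their fibro-adipogenic progenitors lie between the fibres, the tendon and its sheath run along the muscle, skin lies over it, and vessels, nerves and resident macrophages run through it. Muscle also keeps a circadian clock, in which the activators Arntl and Clock or Npas2 drive Per, Cry and Nr1d1 genes that in turn hold the activators back. Inbred C57BL/6 colonies are known to have drifted apart, and the best known difference is a deletion in Nnt, the mitochondrial transhydrogenase that makes NADPH, in the C57BL/6J substrain.

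The 6 libraries held 23320827 to 32281091 fragments, and 19230 to 20753 genes had a count. Mitochondrially encoded genes took 17.5 to 22.4% of the fragments. Pearson's correlation of log2 CPM across genes, which are not independent replicates, was 0.970 to 0.982 within groups and 0.957 to 0.982 between them. Some libraries stood apart. KPP control replicate 1 had 53 genes at 5 CPM or more and over 8-fold above each of the other 5 libraries, where no other library had more than 1, and skin genes were among them. Matrigel control replicate 1 was high in tendon genes. CPM are counts scaled to a normalised library of equal size (TMM). Values without them are given beside the lists they bear on.

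Between any 2 libraries, 4.17 to 11.3% of the 14476 tested genes differed by more than 2-fold. Within groups the share was 4.61% for the LLC controls, 4.41% for the Matrigel controls and 8.19% for the KPP controls. The 12 pairs between groups ran from 4.17 to 11.3%, so the ranges overlapped. The closest pair of all was LLC control replicate 2 with Matrigel control replicate 2, and the farthest LLC control replicate 1 with KPP control replicate 1.

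**Figure D1:**
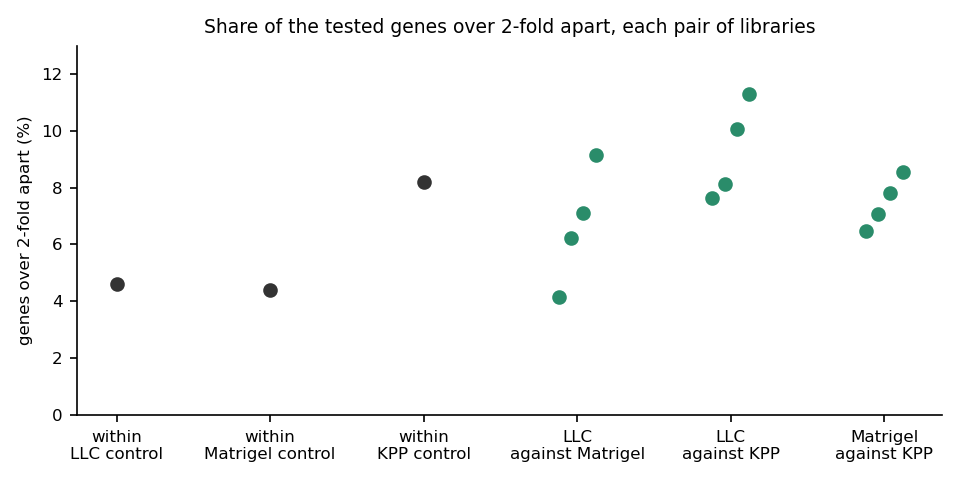
Share of tested genes more than 2-fold apart (vertical axis, percent) for each pair of control libraries, with the 3 pairs within a group in black and the 12 pairs between groups in green. The KPP pair, at 8.19%, lies within the range of the pairs between groups.

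Few genes separated the groups. In the joint test of the 3 groups (edgeR quasi-likelihood, adjusted over all 14476 genes), 11 genes passed an adjusted p of 0.05, which is 0.076%. At an unadjusted p of 0.05 the count was 1761, or 12.2%, and DESeq2's likelihood ratio test called 404, or 2.79%. The ranges of the 3 groups did not overlap for 1532 genes, or 10.6%. Between pairs of groups, 11 genes (0.076%) were higher and 2 (0.0138%) lower in KPP than in LLC controls, 1 (0.00691%) was higher and 0 (0.0%) lower in KPP than in Matrigel controls, and 5 (0.0345%) were higher and 3 (0.0207%) lower in Matrigel than in LLC controls. Beside the count of 0, edgeR gave 673 genes lower in KPP than in Matrigel controls at an unadjusted p of 0.05 (4.65%) and DESeq2 called 48 (0.332%). Together these were 16 genes, and 11 of the 16 had their lowest mean in the LLC controls, against 35.6% of all genes tested. The joint count was 0 without either LLC control, 2 or 3 without a Matrigel control, 48 without KPP control replicate 1 and 430 without KPP control replicate 2, so no call below was kept in every such fit. Those fits have 1 library in a group and 1 residual degree of freedom fewer. Plac9b was 3.15 and 3.08 above the LLC controls on the log2 scale in the KPP controls without LLC control replicate 1 and 2, against 3.11 with both, and Ddit4 was 2.33 and 2.40 above them in the Matrigel controls, against 2.36. With counts scaled for transcript length 4 genes were called, 3 of them among the 11 (Ddit4, Gm16867 and Apod). Genes are called below only where they passed the adjusted threshold in the full set. Counts for each list below are to be set beside the shares over all genes. These are 0.076% called by edgeR, 12.2% at the unadjusted threshold and 2.79% called by DESeq2.

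Genes known to differ among C57BL/6 colonies were among those that separated the LLC controls from the other groups. Wdfy1, an endosomal adaptor of Toll-like receptor signalling (chr1:79702262-79776143, mm10), stood at 19.4 and 22.5 CPM in the LLC controls. The Matrigel controls had 7.18 and 7.84 CPM and the KPP controls 6.28 and 6.30 CPM. The groups did not overlap, and Wdfy1 was lower in KPP than in LLC controls by a log2 fold change of -1.74 ± 0.153 (SE; edgeR adjusted p = 0.0151) and in Matrigel than in LLC controls by -1.48 ± 0.15 (adjusted p = 0.0287). Wdfy1 missed the joint threshold with length-scaled counts (adjusted p = 0.0903).

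Nnt (chr13:119335448-119408997) had 2 overlapping gene records, between which the fragments were divided, and their sum was tested as an alternative added after the data were seen. The summed level was 59.7 and 54.0 CPM in the LLC controls, 11.5 and 14.2 CPM in the Matrigel controls and 12.9 and 18.5 CPM in the KPP controls. It was lower than in the LLC controls in both other groups, by -2.14 ± 0.196 in the Matrigel controls (adjusted p = 0.0251) and by -1.86 ± 0.195 in the KPP controls (adjusted p = 0.0291). As single records neither passed the joint test, with adjusted p of 0.115 and 0.323. Entpd4, a nucleotide hydrolase of the Golgi and lysosomes, ran the other way, at 110 and 112 CPM in the LLC controls, 213 and 228 CPM in the Matrigel controls and 200 and 197 CPM in the KPP controls. Its groups did not overlap, but it missed the threshold (joint adjusted p = 0.0957). Of the 8 genes in the substrain list, 1 of the 6 records tested was called (Wdfy1), 5 had an unadjusted p under 0.05, and DESeq2 called 3. The 2 Nnt records count singly among the 6. Over all genes the unadjusted share was 12.2% and that of DESeq2 2.79%. Ide and Cyfip2 of that list showed values of 83.4 to 102 CPM and 0.519 to 1.63 CPM, with overlapping groups.

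Several predicted genes, named here after their values were seen, had the same order of groups. Gm16867 (chr14:69363504-69503362), which overlaps Entpd4 on the opposite strand, was near 0 in the LLC controls, at 0.0798 and 0.0703 CPM, against 8.46 and 8.28 CPM in the Matrigel controls and 6.77 and 5.24 CPM in the KPP controls. It was called in the joint test (adjusted p = 0.00156). Whether the authors' counting used strand is not given in the sources used here, so reads of overlapping genes cannot be told apart. Gm17167 on chromosome 4 had 0.279 and 0.106 CPM in the LLC controls, 6.90 and 5.49 CPM in the Matrigel controls and 4.20 and 2.34 CPM in the KPP controls (joint adjusted p = 0.0461). Gm17081, a pseudogene just beyond the end of Gm17167, had 0 counts in the LLC controls, 154 over the Matrigel controls and 82 over the KPP controls. Against a floor of 3 counts over the LLC group, that is at least 43.0-fold and 28.9-fold higher.

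Plac9b, the copy of a small secreted protein gene at chr14:26167405-26182480, had the smallest joint p of the single records. Its levels were 2.83 and 2.71 CPM in the LLC controls, 14.9 and 15.4 CPM in the Matrigel controls and 23.3 and 24.6 CPM in the KPP controls (joint adjusted p = 0.00156). With length-scaled counts Plac9b, Dynlt1b and Gm17167 missed the joint threshold, at adjusted p of 0.0588, 0.0588 and 0.0624. Plac9b has near-identical copies in Plac9a and Gm9780, and reads can be split among them. The sum of the 3 records gave the same order, at 4.59 and 4.40 CPM, 23.3 and 24.1 CPM, and 37.4 and 35.2 CPM (joint adjusted p = 0.0014), and no groups overlapped. Dynlt1b, a copy of a dynein light chain gene on chromosome 17, was lower in Matrigel than in LLC controls (15.5 and 17.9 against 57 and 51.6 CPM, adjusted p = 0.0189), with KPP controls between at 28.6 and 34.7 CPM. The sum of 4 Dynlt1 copies kept the order but missed the joint threshold (adjusted p = 0.0617).

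The same genes were read in all 18 libraries, with CPM rescaled over the 18 and no test. Nnt (summed) was at 56.5 to 112 CPM in the 8 libraries of the LLC and C26 experiments, where the C26 mice are CD2F1, and at 12.3 to 31.0 CPM in the 10 libraries of the orthotopic and KPP experiments. Wdfy1 was at 19.0 to 34.9 CPM in the first set and 6.42 to 17.3 CPM in the second. Gm16867 was at or below 0.188 CPM in the first and at or above 2.24 CPM in the second, and the summed Plac9 copies were at 2.99 to 9.09 against 14.0 to 38.3 CPM. For these 4 the 8 and the 10 libraries did not overlap, tumour-bearing or not. Gm17167 did not either, at 0.0321 to 0.292 against 1.49 to 7.35 CPM. All were picked for how they differed among 6 of these same libraries. The share of all genes that part in this way was not counted. Entpd4 did overlap, at 47.8 to 117 CPM against 83.0 to 241 CPM. So did Dynlt1b, at 36.4 to 59.7 against 11.8 to 55.2 CPM, and the summed Dynlt1 copies, at 57.1 to 81.2 against 27.2 to 69.1 CPM.

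**Figure D2:**
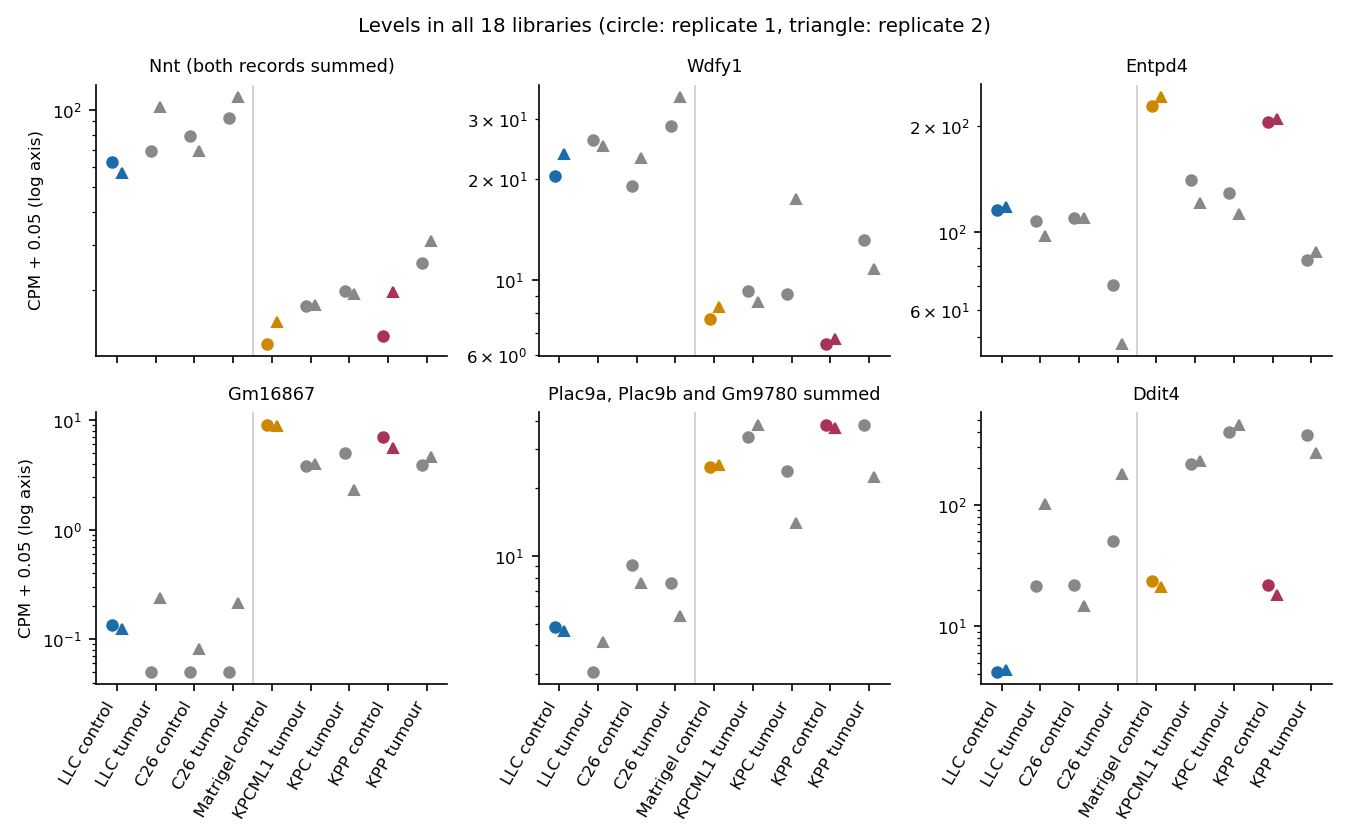
Levels of 6 genes (vertical log axis, CPM + 0.05) in each of the 18 libraries, grouped along the horizontal axis, with LLC, Matrigel and KPP controls in blue, orange and red and other groups in grey; the vertical line parts the LLC and C26 experiments from the rest. Nnt, Wdfy1, Gm16867 and Plac9 split at that line (Nnt 56.5 to 112 against 12.3 to 31.0 CPM), while Ddit4 is lowest in the 2 LLC control libraries only.

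Ddit4 (chr10:59949669-59951834), which encodes an inhibitor of the growth kinase mTORC1 that rises with stress and glucocorticoids, was low in the LLC controls alone. It stood at 3.95 and 4.15 CPM there, at 22 and 19.7 CPM in the Matrigel controls and at 21.3 and 17.2 CPM in the KPP controls. It was higher than in the LLC controls by 2.36 ± 0.165 in the Matrigel controls (adjusted p = 0.00466) and by 2.25 ± 0.165 in the KPP controls (adjusted p = 0.00625), and the latter 2 groups overlapped. Among the other 12 libraries, the C26 controls included, the lowest value was 14.6 CPM, above the LLC controls at 4.13 and 4.34 CPM on the scale of all 18. In a model of all 18 libraries Ddit4 missed the joint threshold (adjusted p = 0.285).

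Other atrophy and FoxO genes leaned the same way without passing. Ddit4 was the 1 gene called of 31 tested in the list, 18 had an unadjusted p under 0.05 against 12.2% of all genes, and DESeq2 called 11. The list had its lowest mean in the LLC controls for 22 of 31 genes, against 35.6% of all genes tested. Its median log2 difference from the LLC controls was 0.43 in the Matrigel and 0.56 in the KPP controls, beside 0.00 and 0.01 over all genes. The first was 0.20 without Matrigel control replicate 1, and the second 0.28 without KPP control replicate 1. Arrdc2, an arrestin-like protein that glucocorticoids induce, stood at 14.7 and 16.2 CPM in the LLC controls, 61.3 and 53.1 CPM in the Matrigel controls and 40.4 and 19.2 CPM in the KPP controls (joint adjusted p = 0.145). Klf15, a transcription factor of amino acid breakdown named after its values were seen, had 17.7 and 23, 37.6 and 30.1, and 39.2 and 35.8 CPM in the same order (0.198). Sesn1, a stress-induced mTORC1 inhibitor, was instead highest in the KPP controls, at 23.1 and 31.1 CPM against 10.8 to 17.1 CPM elsewhere (0.115). The ubiquitin ligases that mark muscle atrophy overlapped between all groups, with Fbxo32 at 182 to 384 CPM and Trim63 at 152 to 380 CPM.

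Of the 3 groups, the KPP controls had the highest mean for 14 of 17 adipocyte genes tested. Adipoq, the fat-cell hormone adiponectin, was at 7.98 and 6.34 CPM there, at 0.399 and 0.0703 CPM in the LLC controls and at 0.550 and 0.385 CPM in the Matrigel controls. The KPP libraries lay above the other 4, and Adipoq was higher than in the LLC controls by 4.95 ± 0.535 (adjusted p = 0.0359). The LLC values are near 0, and the difference was 6.59 without LLC control replicate 1 and 4.15 without replicate 2. Against the Matrigel controls the difference was 3.92 ± 0.477 and missed the threshold (0.145). Other groups of the series held Adipoq too. On the scale of all 18 it was at 5.09 and 4.75 CPM in the C26 controls and 7.54 and 4.53 CPM in the KPCML1 tumour group. The KPP controls had 8.16 and 6.71 CPM on that scale. Of 17 adipocyte genes tested 1 was called, 14 had an unadjusted p under 0.05 and DESeq2 called 11. For 7 the groups did not overlap. In the same order, the shares over all genes were 0.076, 12.2, 2.79 and 10.6%. The median log2 difference of the list was 1.90 from the LLC and 1.45 from the Matrigel controls, beside 0.01 over all genes for both. Without LLC control replicate 1 the first median was 2.96 over the 19 genes that then passed the filter. In these bulk samples, fewer cells of a type and less RNA per cell cannot be told apart.

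Most of the list behaved like Adipoq, and the 2 KPP libraries differed in how far. Cfd, the fat-cell protease adipsin, stood at 64.5 and 19.0 CPM in the KPP controls, 1.95 and 1.27 CPM in the LLC controls and 4.86 and 2.44 CPM in the Matrigel controls (joint adjusted p = 0.0828). Lipe, the hormone-sensitive lipase, was even between the 2 KPP libraries, at 22.5 and 22.2 CPM, against 10.4 to 12.4 CPM in the other 4 (0.0957). Cidec, a lipid droplet protein, had 0 counts in the LLC controls and 244 over the KPP controls, at least 86.0-fold higher against a floor of 3 counts over the group. Car3, an abundant carbonic anhydrase that muscle fibres also express (named after its values were seen), ran the other way, at 1320 and 1617 CPM in the KPP controls against 1780 to 2550 CPM. Leaving out KPP control replicate 1, the library with skin transcripts, left Adipoq called in the joint test (adjusted p = 0.0465) but not between KPP and LLC controls (adjusted p = 0.0573), and lowered the list's median to 0.90 from the LLC controls. With length-scaled counts the joint adjusted p of Adipoq was 0.0821.

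The fibro-adipogenic progenitors, the stromal cells from which such fat arises, showed the same order with smaller steps. All 19 genes tested had their highest mean in the KPP controls, which 34.3% of all genes had. The lowest mean was in the LLC controls for 18, against 35.6% of all genes. Pi16, a marker of the adventitial progenitor, was at 29.5 and 24 CPM in the KPP controls against 5.82 and 4.71 CPM in the LLC controls and 7.76 and 7.26 CPM in the Matrigel controls. It was higher than in the LLC controls by 2.35 ± 0.177 (adjusted p = 0.00625). Apod, a lipid-carrying lipocalin, was at 48.2 and 58.2 CPM against 11.5 and 12.4 CPM and 26.7 and 17.7 CPM, higher than in the LLC controls by 2.15 ± 0.212 (adjusted p = 0.0251). The groups of both genes did not overlap, and both stayed called in the joint test without KPP control replicate 1 (adjusted p = 0.0166 and 0.0331). In a model of all 18 libraries Pi16 missed the joint threshold (adjusted p = 0.249), as it did with length-scaled counts (0.0821). Pi16 and Apod were the 2 genes called of the list. Against 12.2% and 2.79% of all genes, 12 had an unadjusted p under 0.05 and DESeq2 called 7. Pdgfra, the receptor that defines these cells, had overlapping groups, at 8.74 and 9.04, 12.5 and 6.58, and 13.2 and 11 CPM.

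**Figure D3:**
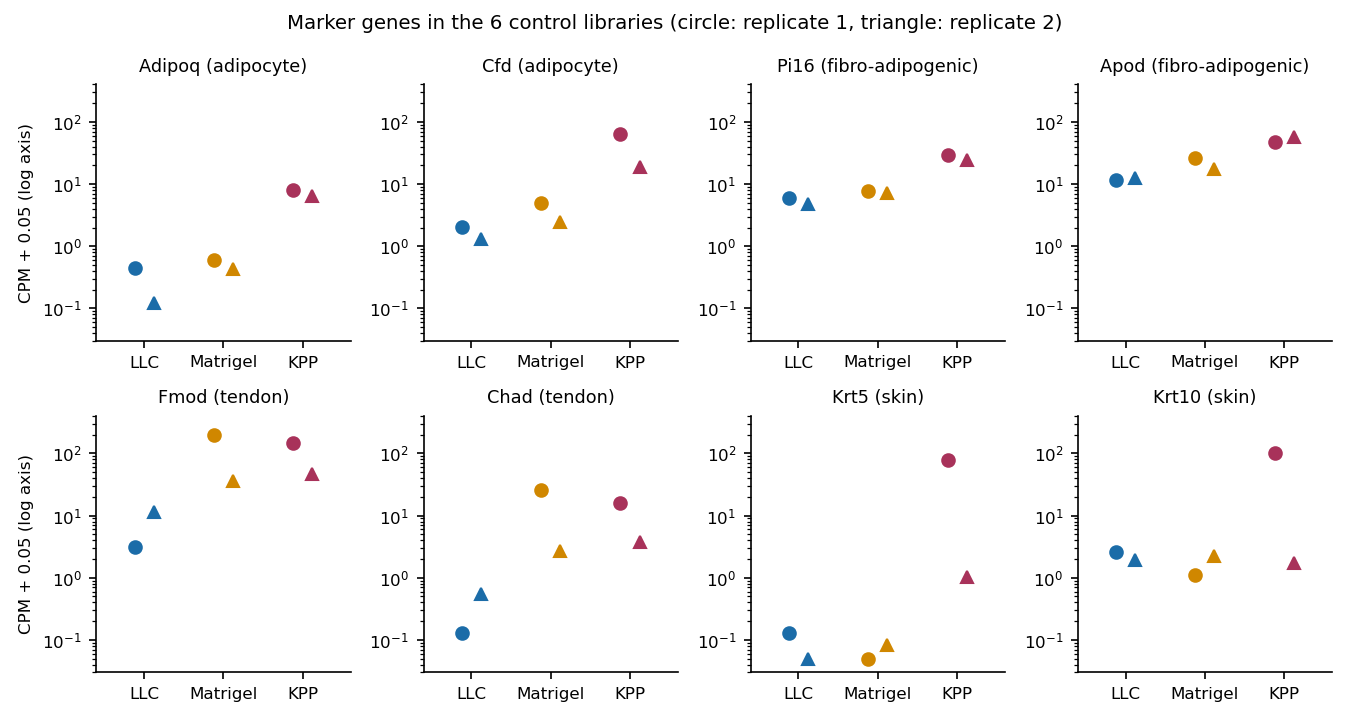
Levels (vertical log axis, CPM + 0.05) of 8 marker genes in the LLC, Matrigel and KPP controls, circles for replicate 1 and triangles for replicate 2. Adipoq, Pi16 and Apod lie high in both KPP libraries, Fmod and Chad differ between replicates of each group, and Krt5 and Krt10 are high in KPP replicate 1 alone (78.4 and 103 CPM).

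Skin transcripts were far higher in 1 library than in the other 5. All 22 genes of the skin list were highest in KPP control replicate 1, where they ran from 3.16 to 103 CPM, and their sum was 797 CPM. The sum was 16.6 CPM in KPP control replicate 2 and 6.63 to 8.14 CPM in the other 4 libraries. Krt5 and Krt14, keratins of the basal layer, stood at 78.4 and 53.5 CPM in replicate 1 and at 0.965 and 3.36 CPM in replicate 2, and the cornified envelope gene Lor at 33.4 and 0 CPM. Krt15 had 0 counts in the LLC and Matrigel controls and 0.046 CPM in replicate 2 against 71.7 CPM in replicate 1. Replicate 2 also lay above all LLC and Matrigel libraries for 11 of the 22 genes. Of 10 skin genes that passed the filter on low counts, edgeR called 0, 9 had an unadjusted p under 0.05 and DESeq2 called 6. Krt5 and Krt14 passed it only through the KPP controls, with at most 0.0798 and 0.128 CPM in the LLC and Matrigel controls. Because the filter kept such genes for being high in that group, these counts are no test of a group difference. Without replicate 1, replicate 2 is alone in its group and 9 skin genes passed the filter. Their median log2 difference was then 0.37 from the LLC and 1.81 from the Matrigel controls. With both KPP libraries it was 5.50 and 6.94 over 10 genes. Other libraries of the series held skin transcripts too. On the scale of all 18, Krt5 was at 13 and 22.7 CPM in the C26 controls and 17.5 CPM in KPP tumour replicate 2, and Krt14 at 21.2, 15.3 and 67.1 CPM, the last above KPP control replicate 1 at 54.7 CPM.

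Tendon transcripts differed widely within groups, and none was called. Fmod, fibromodulin of the tendon matrix, stood at 3.03 and 11.5 CPM in the LLC controls, 198 and 35.9 CPM in the Matrigel controls and 145 and 45.8 CPM in the KPP controls (joint adjusted p = 0.274). Chad, the matrix protein chondroadherin, had 0.0798 and 0.492, 25.3 and 2.63, and 15.7 and 3.77 CPM (0.279). The LLC libraries were lowest for both genes, and replicate 1 exceeded replicate 2 in both other groups. Over the list, all 16 genes tested were higher in replicate 1 of the Matrigel controls than in replicate 2, 12 of them by more than 2-fold. In the KPP controls 15 of 16 were higher in replicate 1, and in the LLC controls 15 of 16 were higher in replicate 2.

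For 14 of the 16 tendon genes the LLC controls had the lowest mean, against 35.6% of all genes. The median log2 difference from the LLC controls was 1.79 in the Matrigel controls and 1.60 in the KPP controls. Without Matrigel control replicate 1 the first was 0.77, and without KPP control replicate 1 the second was 1.33. The LLC controls bore on both medians. They were 1.45 and 1.38 without LLC control replicate 1, and 2.34 and 2.24 without LLC control replicate 2. edgeR called 0 of 16. An unadjusted p under 0.05 was found for 11, against 12.2% of all genes, and DESeq2 called 3 (Thbs4, Dcn and Col12a1), against 2.79%. Tnmd, the tendon membrane protein tenomodulin, ranged from 0.319 to 17.7 CPM, while Scx, the transcription factor that defines the tendon lineage, stayed within 6.02 to 8.72 CPM in all 6 libraries.

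Collagen genes followed the same libraries. The collagen and matrix list shares Col1a1, Col12a1, Fmod, Tnc and Dcn with the tendon list. It also shares Col15a1, Fbn1 and Lum with the progenitor list, so these lists are not independent. Col1a1, the main chain of type I collagen, was at 34.5 and 37.1 CPM in the LLC controls, 250 and 56.8 CPM in the Matrigel controls and 159 and 37.1 CPM in the KPP controls. Col3a1, of the softer type III collagen, had overlapping groups, at 79.4 to 193 CPM. Bgn, the matrix proteoglycan biglycan, was 14.6 and 15.5, 30.4 and 31.8, and 45.8 and 26.4 CPM (joint adjusted p = 0.183). Of 39 collagen and matrix genes edgeR called 0. Against 12.2% and 2.79% of all genes, 14 had an unadjusted p under 0.05 and DESeq2 called 7. The mean was lowest in the LLC controls for 30 of the 39, against 35.6% of all genes. In the KPP controls 38 of 39 were higher in replicate 1 than in replicate 2. The list's median of log2 CPM minus the mean of the 6 libraries was 0.58 and -0.15 there. Over all genes it was 0.02 and -0.01. The median difference from the LLC controls was 0.52 in the Matrigel and 0.61 in the KPP controls, and 0.15 and 0.14 without replicate 1 of each.

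Several clock repressors were highest in the Matrigel controls and lowest in the LLC controls, with no clock gene called. Of 17 core clock genes 11 had their highest mean in the Matrigel controls and 6 in the LLC controls, and 7 had their lowest in the LLC, 3 in the Matrigel and 7 in the KPP controls. Of 13 output genes 9 had their highest mean in the Matrigel controls and 9 their lowest in the LLC controls. Over all genes, 31.5% had their highest mean in the Matrigel and 34.1% in the LLC controls. The lowest mean lay in the LLC, Matrigel and KPP controls for 35.6, 32.7 and 31.8% of all genes. Per2, a repressor of the clock loop, stood at 5.82 and 6.47 CPM in the LLC controls, 25.7 and 22.9 CPM in the Matrigel controls and 16.9 and 8.23 CPM in the KPP controls. The groups did not overlap, and the joint adjusted p was 0.131. Cry2, its partner repressor, had 16.4 and 19.8, 39.0 and 34.0, and 32.4 and 30.4 CPM (0.115). Ciart, a further repressor of the loop, had 3.11 and 4.50, 11.2 and 8.16, and 9.02 and 7.68 CPM (0.179). By group means, the activators Npas2 and Arntl ran the other way, while levels of the activator Clock are not given here. Npas2 was at 0.558 and 0.563 CPM in the LLC controls and 0.0611 and 0.0963 CPM in the Matrigel controls. The KPP controls had 0.174 and 0.322 CPM, so Npas2 was low in all 6 libraries. Arntl was at 10.4 and 15.3, 6.47 and 4.91, and 7.53 and 13.6 CPM in LLC, Matrigel and KPP controls. The LLC and KPP controls overlapped for Arntl.

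Some clock genes also differed between libraries of a group. Per1, the repressor that light and glucocorticoids also induce, was at 51.8 CPM in replicate 1 and 17.7 CPM in replicate 2 of the KPP controls, at 64.0 and 63.0 CPM in the Matrigel controls and at 9.21 and 29.5 CPM in the LLC controls. Per2, Usp2 and Wee1 were likewise higher in KPP replicate 1 (16.9, 146 and 4.48 CPM) than in replicate 2 (8.23, 99.6 and 2.30 CPM), and Arntl and Npas2 lower. Over the 17 core genes, 9 were higher in KPP replicate 1 and 8 in replicate 2, while 14 of 17 were higher in LLC replicate 2 than in replicate 1. The core list's median of log2 CPM minus the mean of the 6 libraries was -0.14 and -0.02 in the LLC controls. Over all genes it was -0.004 and 0.007. Among output genes, Hlf, a PAR-domain factor that the clock drives, was at 8.34 and 10.5, 20.6 and 20.3, and 14.7 and 11.2 CPM (joint adjusted p = 0.142). Dbp of the same family differed little, at 95 to 128 CPM.

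Of 17 core clock genes edgeR called 0, 6 had an unadjusted p under 0.05 and DESeq2 called 3. Of 13 output genes edgeR called 0, 10 had an unadjusted p under 0.05 and DESeq2 called 4. The shares over all genes were 0.076, 12.2 and 2.79%. The median difference of Matrigel from LLC controls was 0.73 over the output genes and 0.19 over the core genes, beside 0.00 over all genes. The hour at which the muscles were taken was not tested, and it cannot be told apart from the group.

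**Figure D4:**
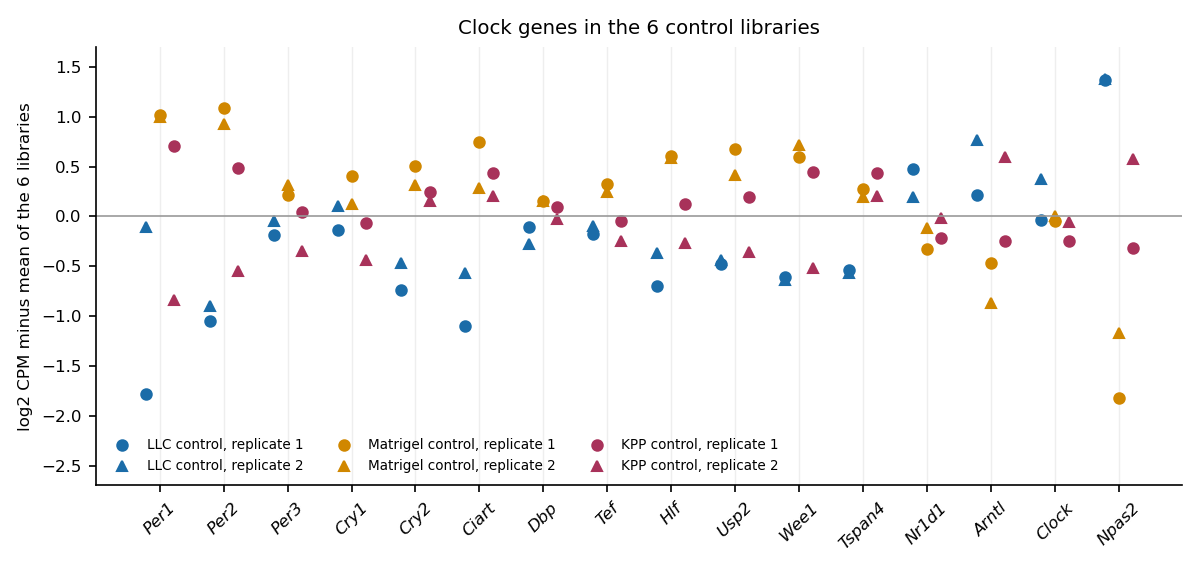
Clock genes in the 6 control libraries, as log2 CPM minus the mean of the 6 (vertical axis); circles are replicate 1 and triangles replicate 2. Matrigel controls (orange) lie above LLC controls (blue) for Per2, Cry2, Ciart, Hlf and Usp2 and below them for Npas2 and Arntl, and the KPP libraries (red) differ from each other for Per1 (51.8 and 17.7 CPM).

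The E-box CACGTG, where Arntl with Clock or Npas2 binds, and the D-box TTATGTAA, where Dbp, Tef, Hlf and Nfil3 bind, were searched on both strands in the 250 bases before the start of each gene in the RefSeq table (build GRCm38.p6). Of the 30 clock genes 23 matched a promoter in that table. The E-box was found in 6 of these (Bhlhe41, Ciart, Cry1, Per1, Tef and Tspan4) and in 6.02% of 32851 promoters. The D-box was found in Per3 alone and in 0.819% of promoters. The clock counts are of genes, some with more than 1 start, and the shares are of promoters, so they are not like for like. A match describes the letters only. The promoters of 3 repressors are shown because their letters hold those elements, in capitals, while their levels differed as given above for Ciart and Per1. Per3, with 2 D-boxes, had 25.7 and 28.4, 34.1 and 36.4, and 30.2 and 23.1 CPM (joint adjusted p = 0.420). Each sequence is written 5′ to 3′ on the strand of the gene and ends at the base before the start. Ciart lies on the minus strand at chr3:95882229-95882478, Per1 on the plus strand at chr11:69098699-69098948, and Per3 on the minus strand at chr4:151044666-151044915.
Ciart: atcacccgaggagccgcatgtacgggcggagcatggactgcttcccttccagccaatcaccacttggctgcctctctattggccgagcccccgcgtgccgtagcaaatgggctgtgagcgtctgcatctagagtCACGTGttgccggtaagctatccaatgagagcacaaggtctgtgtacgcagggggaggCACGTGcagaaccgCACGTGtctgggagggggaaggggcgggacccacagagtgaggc
Per1: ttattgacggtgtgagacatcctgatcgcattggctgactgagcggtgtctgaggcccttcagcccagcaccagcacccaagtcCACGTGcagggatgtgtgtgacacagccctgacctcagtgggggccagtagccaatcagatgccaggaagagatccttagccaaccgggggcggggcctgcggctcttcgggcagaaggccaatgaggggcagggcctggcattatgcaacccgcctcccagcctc
Per3: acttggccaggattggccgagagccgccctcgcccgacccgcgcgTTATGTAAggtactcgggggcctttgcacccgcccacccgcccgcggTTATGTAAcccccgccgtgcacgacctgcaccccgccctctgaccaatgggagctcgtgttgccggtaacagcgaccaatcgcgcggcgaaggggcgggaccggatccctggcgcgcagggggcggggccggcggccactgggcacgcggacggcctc

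No gene of the fibre, oxidative phosphorylation or mitochondrially encoded lists was called between the groups. Of 18 fast fibre genes edgeR called 0, 0 had an unadjusted p under 0.05 and DESeq2 called 0. Myh4, the myosin of the fastest fibres, ranged from 24934 to 46874 CPM, and its highest library was Matrigel control replicate 1. Myh1, Myh2 and Myh4 are near-identical in part, so reads can be split among them. Ckm, the muscle creatine kinase, was within 18592 to 23631 CPM. Of 16 slow fibre genes edgeR called 0, while 1 had an unadjusted p under 0.05, against 12.2% of all genes, and a DESeq2 call. It was Myl2, the regulatory light chain of slow fibres, at 0.957 and 1.20, 0.519 and 1.54, and 3.09 and 11.8 CPM. Myh7, the slow myosin that defines these fibres, stayed at or under 2.11 CPM.

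The 44 nuclear genes of oxidative phosphorylation tested went up and down together from library to library. 43 had their highest mean in the LLC controls, against 34.1% of all genes, and 41 their lowest in the Matrigel controls, against 32.7%. The differences were small and also lay within groups. The median log2 difference of Matrigel from LLC controls was -0.36, or -0.17 without Matrigel control replicate 1, and 44 of 44 were higher in replicate 1 than in replicate 2 of the LLC controls. In the Matrigel and KPP controls 43 of 44 were higher in replicate 2. The list's median of log2 CPM minus the mean of the 6 libraries followed. In LLC, Matrigel and KPP controls it was 0.32 and 0.07, -0.37 and 0.03, and -0.23 and 0.19. Over all genes it ran from -0.01 to 0.02. Ndufb8, a complex I subunit, shows the pattern of the list at 510 and 422 CPM, 293 and 380 CPM, and 341 and 471 CPM in LLC, Matrigel and KPP controls. No gene of the list had an unadjusted p under 0.05 or a call by edgeR or DESeq2 (0 of 44 each). Of the 13 mitochondrially encoded genes edgeR and DESeq2 called 0 and 1, mt-Nd6, had an unadjusted p under 0.05. Of 20 heat shock genes edgeR and DESeq2 called 0, and 1 had an unadjusted p under 0.05, against 12.2% of all genes.

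**Figure D5:**
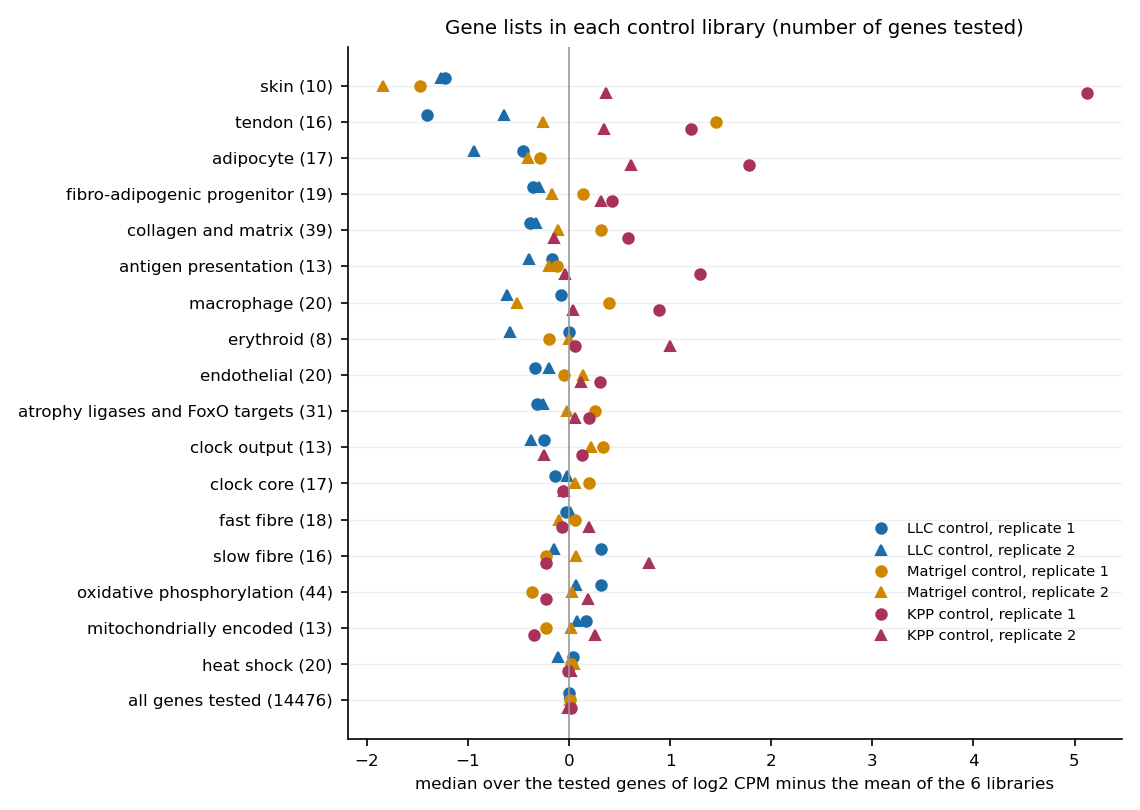
Gene lists (rows, with the number of genes tested) in each control library, as the median over genes of log2 CPM minus the mean of the 6 libraries (horizontal axis). Skin stands out in KPP control replicate 1 (5.12), adipocyte genes in both KPP libraries (1.78 and 0.62) and tendon genes in replicate 1 of the Matrigel and KPP controls (1.45 and 1.20), while fast fibre and heat shock lists stay near 0.

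Most endothelial genes had their highest mean in the KPP controls, 14 of 20 against 34.3% of all genes, as did 6 of 8 erythroid genes. Smooth muscle and pericyte genes differed little in their median. For 7 of 14 the KPP controls had the highest mean, with a median log2 difference of 0.11 from the LLC and 0.11 from the Matrigel controls. edgeR and DESeq2 called 0 of the 14, and 4 had an unadjusted p under 0.05, against 12.2% of all genes. Ly6c1, a surface protein of muscle endothelium, was at 79.8 and 69.7 CPM in the KPP controls. It was at 32.8 and 33.1 CPM in the LLC controls and 44.4 and 45.5 CPM in the Matrigel controls. The groups did not overlap, and Ly6c1 was higher in KPP than in LLC controls by 1.18 ± 0.124 (adjusted p = 0.0326), with a joint adjusted p of 0.0601. In a model of all 18 libraries that difference missed the threshold (adjusted p = 0.0559). Pecam1, the endothelial adhesion molecule, followed at 60.2 and 63.9 against 40.1 and 36.5 and 49.0 and 51.5 CPM (joint adjusted p = 0.168). Of 20 endothelial genes edgeR called 0 in the joint test. Against 12.2% and 2.79% of all genes, 12 had an unadjusted p under 0.05 and DESeq2 called 7. Cldn5, a tight junction protein of vessels, was instead lowest in the Matrigel controls, at 4.92 and 7.58 CPM against 12 to 21.2 CPM. The haemoglobin gene Hba-a1, which has a near-identical copy, was highest in KPP control replicate 2, at 161 CPM against 48.9 to 86.6 CPM. Of 8 erythroid genes edgeR called 0, 4 had an unadjusted p under 0.05 and DESeq2 called 2, beside the same shares of all genes.

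Antigen presentation and macrophage genes stood high in KPP control replicate 1. There, the median of log2 CPM minus the mean of the 6 libraries was 1.30 and 0.89 over these lists. It was 0.02 over all genes and -0.24 over 5 neutrophil genes. In KPP control replicate 2 the 2 lists had -0.04 and 0.03. The KPP controls had the highest mean for 13 of 13 and 16 of 20 genes, against 34.3% of all genes. The class II antigen gene H2-Aa stood at 39.7 and 19.1 CPM in the KPP controls and at 9.86 to 13.8 CPM in the other 4 libraries. Of 13 antigen presentation genes edgeR called 0, 6 had an unadjusted p under 0.05 and DESeq2 called 2. The shares over all genes were 0.076, 12.2 and 2.79%. Without KPP control replicate 1 the unadjusted count was 3, and the median difference of KPP from LLC controls 0.21 in place of 0.85. Macrophage genes had a summed level of 135 CPM in KPP control replicate 1 and 47.5 to 88.8 CPM in the others. C1qb, a complement subunit that macrophages make, was at 10.8 and 7.08 CPM in the KPP controls, 3.03 and 3.2 CPM in the LLC controls and 7.15 and 5.20 CPM in the Matrigel controls. Of 20 macrophage genes edgeR called 0, 6 had an unadjusted p under 0.05 and DESeq2 called 1, and without that library the unadjusted count was 2 and the median 0.38 in place of 0.66. Skin transcripts were at their highest in the same library, and their part in these values was not tested.

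Single genes of fasting and fatty acid use were higher in the KPP controls, none of them called, but the list was split. Of its 26 genes 12 had their highest mean in the KPP and 12 in the LLC controls, against 34.3% and 34.1% of all genes. The median log2 difference of the KPP controls was 0.03 from the LLC and 0.40 from the Matrigel controls. Ucp3, the uncoupling protein of muscle, was at 221 and 273 CPM against 90.3 to 132 CPM in the other 4 libraries (joint adjusted p = 0.111). Pdk4, the kinase that turns fuel use from glucose to fat, was at 361 and 930 CPM against 287 and 253 CPM in the LLC controls and 196 and 133 CPM in the Matrigel controls (0.219). Angptl4, an inhibitor of lipoprotein lipase, was at 2.64 and 4.55, 1.64 and 0.879, and 0.336 and 0.578 CPM in KPP, LLC and Matrigel controls (0.135). Of the 26 genes edgeR called 0, 5 had an unadjusted p under 0.05 and DESeq2 called 2. The shares over all genes were 0.076, 12.2 and 2.79%. Scd1, the desaturase of fat synthesis, was at 42.6 and 20.5 CPM in the KPP controls against 4.47 to 9.38 CPM (0.103). On the scale of all 18, Scd1 was at 55.5 and 43.3 CPM in the C26 controls, beside 43.6 and 21.6 CPM in the KPP controls. Among the 6 libraries the adipocyte list was highest in the 2 KPP controls, and its part in these values was not tested.

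Of 16 regeneration genes tested, 9 had their highest mean in the Matrigel and 7 in the KPP controls, against 31.5% and 34.3% of all genes. For 9 the lowest mean was in the LLC controls, against 35.6%. The median log2 difference from the LLC controls was 0.38 in the Matrigel and 0.21 in the KPP controls. Myh8, the perinatal myosin, was at 10.9 and 6.81 CPM in the Matrigel controls against 2.53 to 3.91 CPM in the other 4 (joint adjusted p = 0.145). Myh3, the embryonic myosin, was at 7.33 CPM in Matrigel control replicate 1 and 0.659 to 1.80 CPM elsewhere. Pax7, which defines satellite cells, was at 1.24 to 2.38 CPM with overlapping groups. Of the 16 genes edgeR called 0. Against 12.2% and 2.79% of all genes, 4 had an unadjusted p under 0.05 and DESeq2 called 1.

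Eed, a core subunit of the Polycomb repressive complex PRC2, was the 1 gene called between KPP and Matrigel controls. It stood at 16.9 and 15.5 CPM in the KPP controls, 2.96 and 2.86 CPM in the Matrigel controls and 3.59 and 4.82 CPM in the LLC controls, a difference of 2.47 ± 0.197 from the Matrigel controls (adjusted p = 0.0363). The difference lay in 1 transcript record, Eed-201, which held 384 and 253 estimated counts in the KPP controls and 0 in the other 4 libraries. Over the 18 libraries that record was at 0 in 10 and at 253 to 509 in 8, and the 2 libraries of the KPC tumour group had 455 and 0. With length-scaled counts the difference was 1.07 and the joint adjusted p 0.242. Gdf1, a growth factor gene called in the joint test (0.0461), likewise shares its locus with Cers1, a ceramide synthase, and the sum of both was not called (0.275).

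Myo5c, an unconventional myosin of vesicle transport, was even in the LLC and Matrigel controls (26.4, 28.1, 26.4 and 27.2 CPM) and lower in the KPP controls, at 13.5 and 13.4 CPM. The difference of KPP from LLC controls was -1.02 ± 0.118 (adjusted p = 0.0485), with a joint adjusted p of 0.062. The difference missed the threshold with length-scaled counts (0.156), in a model of all 18 libraries (0.277) and without KPP control replicate 1 (0.0623). Of 283 windows of 10 Mb with a tested gene, none held more than 1 gene called in the joint test. Among the genes called between pairs, Gm9780 lay in the window of its near-identical copy Plac9b. Xist was at or below 0.359 CPM and Ddx3y at 44.7 to 75.7 CPM in all 6 libraries. Of 4 sex-linked genes tested edgeR called 0, 1 had an unadjusted p under 0.05 and a DESeq2 call: Eif2s3y, a Y-linked translation factor subunit, at 29.3 and 18.8 CPM in the LLC controls, 42.5 and 46.6 CPM in the Matrigel controls and 43.3 and 50.6 CPM in the KPP controls. No gene of liver or pancreas passed the filter on low counts.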

How the data were processed

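RNA-seq of TA muscle from 6 tumour-free control libraries was used, of 18 in the series. The authors deposited Salmon output, which holds an estimated count and a TPM value for each transcript. bcl2fastq 2.20, FastQC, Salmon, DESeq2 and mm10 come from the submitters' processing notes, while Salmon's version, its strand setting and its transcript release were not stated there. The deposited TPM were used only to make length-scaled counts. The authors' 5 deposited DESeq2 comparison tables, of tumour against control groups, were not used.

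Expected counts were summed per gene through GENCODE M21 and rounded to whole numbers, and 0.411 to 0.675% of fragments fell on transcripts without a match. Libraries were grouped by their labels. Of 25276 genes with a count, 14476 passed edgeR's filterByExpr (edgeR 4.0.16, R 4.3.3) and were fitted with TMM normalisation and the quasi-likelihood test, jointly over the 3 groups and for each pair, with Benjamini-Hochberg adjustment over all 14476 genes at 0.05. The fit had 3 residual degrees of freedom. An exact permutation test over 3 groups of 2 cannot go below p = 0.0667. DESeq2 1.42.0, other scaling, filtering and model choices, each library left out and, added after the data were seen, merged overlapping or near-identical records were alternatives. On simulated data with the KPP controls changed among 14476 genes, 48 of 100 genes changed by 2-fold and 77 of 100 changed by 4-fold were called, and so were 25 unchanged genes.

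The comparison, gene lists and rules were chosen with earlier results of these data known. Named genes were, for each list, up to 6 members of smallest joint p and those that define it. To these were added the 15 genes of smallest joint p with at least 5 CPM in the highest group, and up to 6 called genes in each direction per pair, leaving out predicted genes. Genes outside that rule are said to be named after their values were seen. Floors of 3 counts and ratios cover counting error only. Python 3.11.15 and matplotlib 3.10.9 were used for the plots.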

Additional observations from a re-analysis of the deposited data

How the results depend on the processing

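The counts of called genes depended on the test and on single libraries, with 2 libraries a group. In the joint test 11 genes were called, against 404 with DESeq2, 1721 with no filter on low counts, 20 in a model of all 18 libraries, of which 7 were among the 11, and 4 with length-scaled counts. KPP against LLC controls gave 13, against 434, 1318, 22 and 4 in the same order. KPP against Matrigel controls gave 1, against 126 with DESeq2, 892 with no filter, 0 in the model of all 18 libraries and 2 with RLE size factors. Matrigel against LLC controls gave 8, against 121 with DESeq2 and 633 with no filter. The cause of these differences was not tested. Leaving out 1 library gave 0 to 430 genes in the joint test, 0 to 592 for KPP against LLC, 0 to 240 for KPP against Matrigel and 0 to 29 for Matrigel against LLC controls. The library left alone in its group is then assumed to vary like the other groups. Replicate numbers did not pair the libraries: same-numbered libraries' deviations correlated at -0.0521, -0.0446 and 0.176. With the replicate number as a block the counts were 39, 51 and 14 for the joint test and the 2 KPP comparisons. Of the values of named genes under an alternative, 175 kept their side of the threshold and direction, 42 passed it newly, 52 no longer passed and 0 changed direction.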
